A study of Homo sapiens with 6 samples.

Results

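MET, SPTBN1 and CEBPA are 3 human genes with RNA clusters of the control immunoprecipitation in an eCLIP experiment on Angel1. The genes were chosen on their control values, and partly on peaks found in both FLAG-Angel1 replicates. The control values were high on MET and CEBPA and small on SPTBN1. Every cluster touching the gene spans on GRCh37 was taken, on both strands. This gave 247 clusters of 205520 in the 3 lists, namely 43 of 5717 in the control, 108 of 102843 in FLAG-Angel1 replicate 1 and 96 of 96960 in replicate 2. Enrichment of these genes in the control IP is therefore how they were selected and not a finding. The values below are descriptions, and no test was made between libraries.

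The eCLIP assay fixes proteins to the RNA they touch with UV light, pulls down 1 protein with its RNA fragments for sequencing, and sets the reads against a size-matched input of the same lysate. A control IP shows what is recovered without the tagged protein. The libraries were all made from Flp-In T-REx HEK293, a line derived from human embryonic kidney in which a construct can be placed under tetracycline control. Per the labels, tetracycline was at 5 ng/mL, induction lasted 24 h, and the UV dose was 400 mJ/cm2 at 254 nm. The 6 libraries were an IP and an input for each of 2 FLAG-Angel1 replicates and for 1 control (FLAG-only), and the 3 IPs used the M2 FLAG antibody. In the FLAG-Angel1 cells an N-terminally tagged Angel1, a homolog of the CCR4 deadenylase, was expressed from a tetracycline-regulated promoter at close to the endogenous level.

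The labels give FLAG-Angel1 as the genotype of the control too, whereas the study describes control cells with no FLAG fusion protein. The study also mentions a sample without UV light, which the labels do not mark. The labels do not say whether the replicates were separate cultures, and the identity of the cells was not checked, since the lists carry no gene names.

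MET encodes the receptor tyrosine kinase for hepatocyte growth factor. SPTBN1 encodes a non-erythrocytic beta spectrin, a long protein of the membrane skeleton. CEBPA encodes a basic leucine zipper transcription factor of myeloid, fat and liver cells, and is a short gene without introns. The spans were chr7:116312459-116438440 for MET and chr2:54683454-54898583 for SPTBN1, both on the plus strand, and chr19:33790840-33793470 on the minus strand for CEBPA. Exons, introns and UTRs were not assigned, because no annotation of this build was used here.

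Each cluster carried the authors' log2 fold of IP over input and a P. The reads behind a cluster were inferred as the whole numbers of IP and input reads that return both values. The inferred library sizes were 209788 IP and 3249250 input reads in the control, 3396701 and 722085 in replicate 1, and 2543630 and 2812210 in replicate 2. Of the member clusters, 26 of 43 had exact reads in the control and the other 17 only a lower bound, because their −log10 P stood at the cap of 400. At the cap, the input reads are a lower bound as well as the IP reads. Exact reads were found for 101 of 108 clusters in replicate 1 and for 96 of 96 in replicate 2. A single input read may also be a 0 raised to 1 by the pipeline, so folds against 1 input read depend on that step.

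Clusters often abutted one another, and a run of abutting clusters of the control on 1 strand is called a block here. The 43 control clusters formed 18 blocks, 3 on MET, 3 on SPTBN1 and 12 on CEBPA. Blocks are described by the cluster with their highest log2 fold. RPM values, the IP reads of that cluster for every 1000000 reads of the IP library, carry exact 95% Poisson intervals, which cover counting error only. They are shares of a library, so a larger share at a block and fewer reads elsewhere in the control IP cannot be told apart.

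On MET, 1 block of 21 nt carried most of the control reads. It lay at chr7:116412082-116412102, 99623 nt from the gene start, and held 3 clusters with the same 188 IP reads against 1 input read, a log2 fold of 11.51. This was the highest log2 fold among the 3700 control blocks that held an enriched cluster, and of the whole control list. Replicate 1 had 62 IP reads against 1 input read there (log2 fold 3.72), and replicate 2 had 37 against 5 (log2 fold 3.03). All 3 libraries thus had an enriched cluster at this block.

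The share of the IP library at the MET block was 896 RPM (773 to 1034) in the control. It was 18.3 (14.0 to 23.4) in replicate 1 and 14.5 (10.2 to 20.05) in replicate 2, so that the 2 replicates overlapped in their intervals and lay far below the control. The inputs held 0.308, 1.38 and 1.78 RPM in the same order. The control share was 49.1 times that of replicate 1 and 61.6 times that of replicate 2.

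The edges of the MET block agreed closely between libraries. Against the control block, the run of clusters in replicate 1 began 1 nt later and that in replicate 2 began 1 nt earlier, and all 3 ended at the same position. The other 2 control blocks of MET were weaker. Both had 16 IP reads and 2 input reads (log2 fold 6.95), at chr7:116411916-116411937 and chr7:116417463-116417486. Replicate 1 had 25 IP reads and 2 input reads at the former, below the threshold, and no cluster at the latter. Replicate 2 had 9 and 6 IP reads there, each against 1 input read, of which the former was enriched.

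Elsewhere on MET few clusters were called in the Angel1 IPs. In replicate 1, 0 of 8 clusters outside the control blocks passed the threshold of 0.05, against 11.7% of all clusters, with a median log2 fold of 0.22 against 0.57. In replicate 2, 1 of 5 did, against 40.7%, with a median of 2.14 against 1.73. These counts are too small to set apart from the shares of the lists. A cluster at the gene start was called in both replicates, with 37 IP and 4 input reads in replicate 1 (log2 fold 0.98) and 27 and 16 in replicate 2 (log2 fold 0.90), and passed the threshold in neither.

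**Figure D1:**
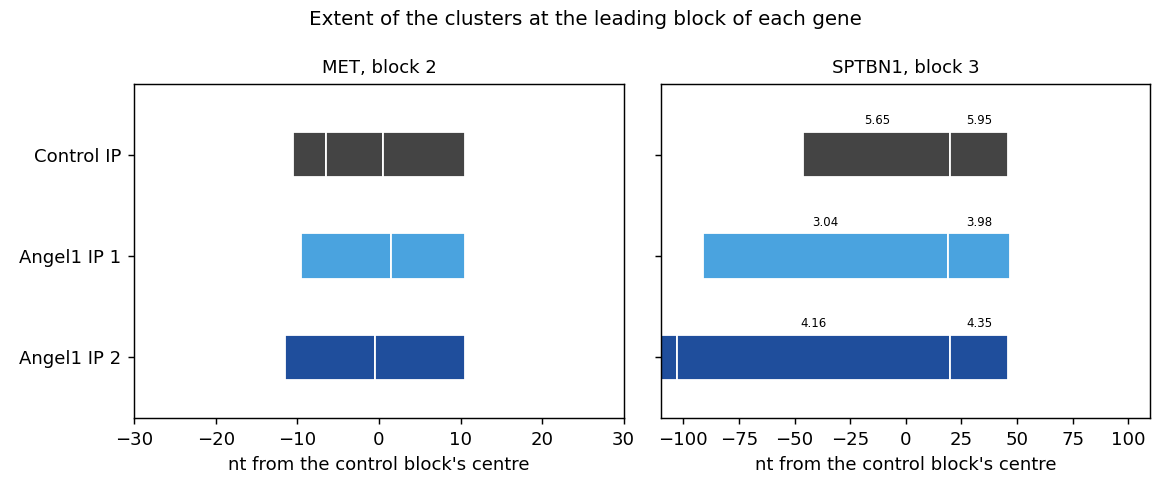
Extent of the clusters at the leading control block of MET and SPTBN1, with distance from the block's centre in nt on the x axis and 1 row for each IP library. White lines part abutting clusters, and the small figures at SPTBN1 are log2 folds of IP over input. At MET the runs of the 3 libraries are 20 to 22 nt wide with edges at most 1 nt from those of the control block. At SPTBN1 the Angel1 clusters begin farther upstream than the control block of 92 nt and end at most 1 nt from its end.

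CEBPA held more control clusters than the other 2 genes together, 34 of 43, with 24 on the sense and 10 on the antisense strand. They formed 9 sense and 3 antisense blocks between 148 and 1281 nt from the gene start. The blocks were 19 to 35 nt wide and took up 266 nt of a stretch of 1152 nt. Gaps between neighbouring sense blocks ranged from 5 to 192 nt. Over the 12 blocks the control log2 fold ran from 8.12 to 11.25, and 17 of the 34 clusters stood at the cap of the P.

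The sense block with the highest control log2 fold, chr19:33793288-33793322, had at least 403 IP reads against 3 input reads in the control (log2 fold 11.02). Replicate 1 had 32 reads against 1 (log2 fold 2.77) and replicate 2 had 76 against 4 (log2 fold 4.39). The cluster of replicate 1 with the most reads there had 127 against 4 at nearly the same log2 fold, 2.75, so that the control share was at least 51.4 times that of replicate 1 by this cluster. The block lay 148 nt from the gene start. At the far end, chr19:33792171-33792189 had at least 361 reads against 5 in the control, 94 against 1 in replicate 1 and 89 against 8 in replicate 2. Their log2 folds were 10.13, 4.32 and 3.62.

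The weakest sense block by reads, chr19:33792263-33792283, had 39 IP reads and 2 input reads in the control (log2 fold 8.24). Replicate 1 had a cluster of 25 reads against 1 there that did not pass the threshold, and replicate 2 had none. At the other 8 sense blocks both replicates had an enriched cluster.

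All 3 antisense blocks recurred in all 3 libraries. At chr19:33792483-33792506 the control had at least 315 IP reads against 2 input reads (log2 fold 11.25), replicate 1 had 126 against 1 (log2 fold 4.74) and replicate 2 had 78 against 7 (log2 fold 3.62). At chr19:33792683-33792704 the reads were at least 363 against 8, then 160 against 2 and 91 against 3, with log2 folds of 9.46, 4.09 and 5.07. At chr19:33792311-33792330 they were 66 against 1, then 34 against 1 and 12 against 2, with log2 folds of 10.00, 2.85 and 2.73. The last of these blocks had the fewest IP reads of the 3 in every library.

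The distance of the antisense blocks from the sense blocks varied. The antisense block at chr19:33792683-33792704 was covered over all its 22 nt by a sense block, and the one at chr19:33792483-33792506 lay 1 nt from a sense block, while chr19:33792311-33792330 was 27 nt from the nearest. Of the 18 control blocks at the 3 genes, 2 overlapped a block of the other strand, this pair on CEBPA, against 4 of 3700 enriched control blocks in all (0.108%). Counting only the cluster with the highest log2 fold in each CEBPA block, antisense blocks took 31.25% of the IP reads in replicate 1 and 30.3% in replicate 2. In replicate 1 this counts 32 reads at the sense block chr19:33793288-33793322, where another cluster had 127. No cluster was called on the antisense strand of MET or SPTBN1 in any library.

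In the Angel1 lists, 25 of the 32 CEBPA clusters in replicate 1 and all 24 in replicate 2 lay over a control block. The same share over all Angel1 clusters was not computed, and the gene was chosen on its control values. The 7 others in replicate 1 were on the sense strand with a median width of 86 nt and log2 folds from 1.01 to 2.57. Of these, 5 passed the threshold of 0.05 and 0 that of 0.001, against 11.7% and 4.22% of all clusters of replicate 1.

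**Figure D2:**
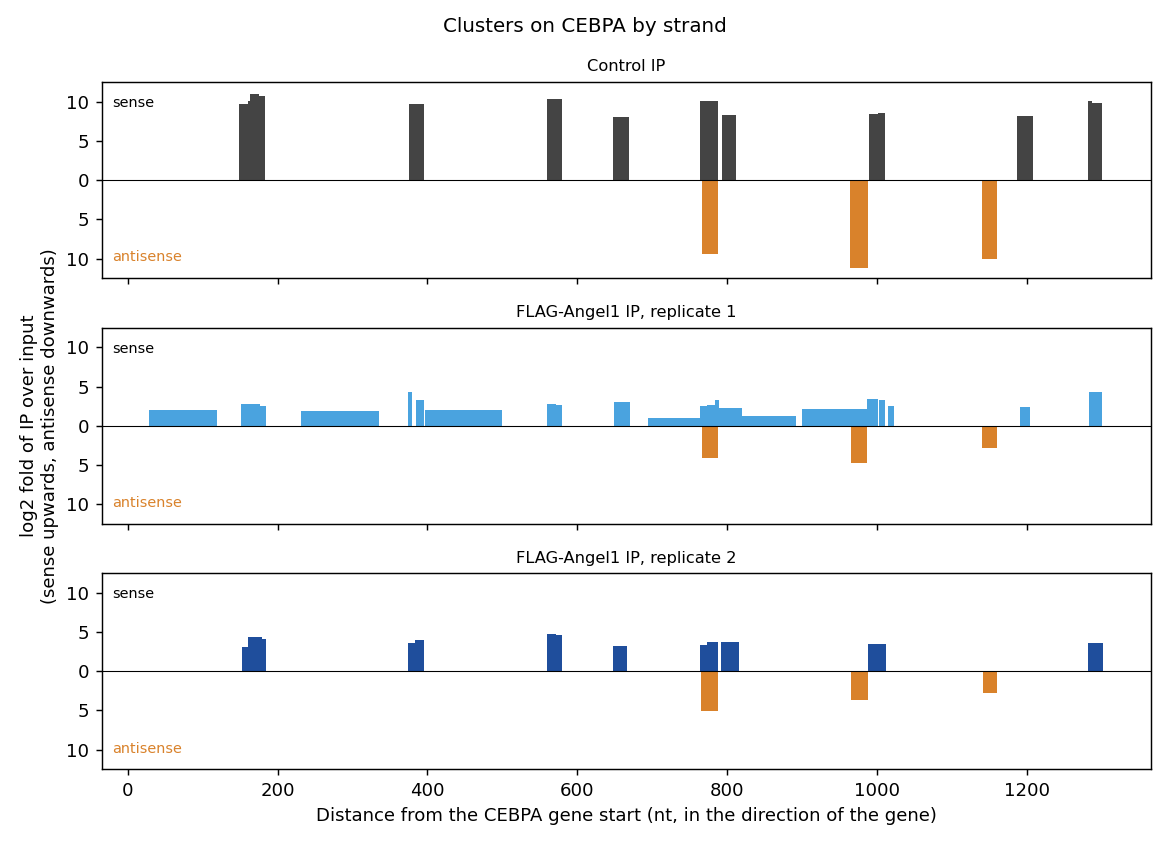
Clusters on CEBPA in the 3 IP libraries, with distance from the gene start in nt on the x axis and the log2 fold of IP over input on the y axis, drawn upwards for the sense and downwards for the antisense strand. The control has 9 sense and 3 antisense blocks, the same 3 antisense positions hold clusters in both FLAG-Angel1 replicates, and replicate 1 has further broad clusters between the sense blocks.

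SPTBN1 differed from the other 2 genes. Its control signal was small, with 4 clusters in 3 blocks and at most 13 IP reads in a cluster, and the blocks ranked 762, 2626 and 2817 of the 3700 by log2 fold. The best block, chr2:54859813-54859904, spanned 92 nt and had 12 IP reads against 3 input reads (log2 fold 5.95). Replicate 1 had 74 reads against 1 there (log2 fold 3.98) and replicate 2 had 37 against 2 (log2 fold 4.35). At chr2:54856235-54856334 the reads were 5 against 8 in the control, 116 against 6 in replicate 1 and 74 against 8 in replicate 2. At chr2:54856448-54856465 they were 3 against 4, then 176 against 9 and 87 against 8.

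In RPM, the best SPTBN1 block had 57.2 (29.6 to 99.9) in the control, 21.8 (17.1 to 27.4) in replicate 1 and 14.5 (10.2 to 20.05) in replicate 2. At chr2:54856235-54856334 the control had 23.8 (7.74 to 55.6), against 34.2 and 29.1 in the replicates, whose values fell inside its interval. At chr2:54856448-54856465 the control had 14.3 (2.95 to 41.8), replicate 1 had 51.8 (44.4 to 60.1) and replicate 2 had 34.2 (27.4 to 42.2). The clusters behind these values were 18 nt wide in the control, 146 nt in replicate 1 and 114 nt in replicate 2. Wider clusters can hold more reads, so these values are not on a like width. At the best block the neighbouring clusters, with the most IP reads in each library, gave 62.0 (33.0 to 106) in the control, 34.2 (28.2 to 41.0) in replicate 1 and 31.8 (25.3 to 39.6) in replicate 2, with intervals that overlap. By the cluster with the highest log2 fold, the control was thus above both replicates at the best block. By the cluster with the most reads it was not clearly above them. At neither of the other blocks was it above them, and at chr2:54856448-54856465 it was below replicate 1, over a narrower cluster.

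The Angel1 lists, which are longer, held more clusters on SPTBN1. Replicate 1 had 65 clusters, of which 49 were enriched (75.4%, against 11.7% of all its clusters). Replicate 2 had 62, of which all were enriched, against 40.7% of all its clusters. By number, enriched or not, the clusters were 0.0632% and 0.0639% of their lists, a similar share in the 2 replicates. The 4 control clusters were 0.070% of theirs, a count too small to compare. Clusters ran from the gene start to 212 kb of the 215 kb span, and 54 of 65 and 53 of 62 lay beyond 75% of its length. Of these clusters, 83.1% in replicate 1 and 82.3% in replicate 2 overlapped a cluster of the other replicate, against 52.6% and 54.6% of all clusters. The median cluster had 56 IP reads in replicate 1 and 35 in replicate 2. Outside the control blocks the median log2 fold was 1.74 in replicate 1 and 2.81 in replicate 2, over 61 and 57 clusters.

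**Figure D3:**
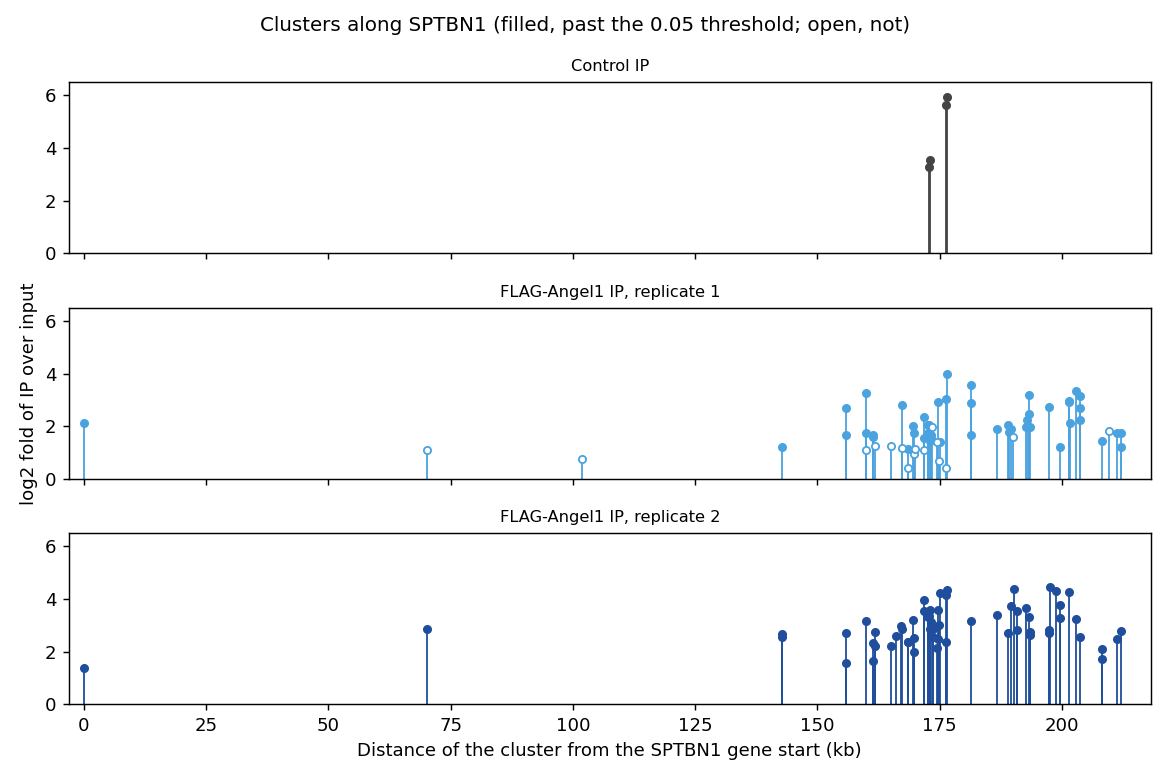
Clusters along SPTBN1, with distance from the gene start in kb on the x axis and the log2 fold of IP over input on the y axis, filled where the cluster passed the threshold of 0.05 and open where it did not. The control has 4 clusters between 172.8 and 176.4 kb, and the FLAG-Angel1 replicates, whose lists are longer, have 65 and 62 from the gene start to 212 kb.

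Counted over the 3 genes, all 43 control clusters were enriched at the threshold of 0.05, against 91.8% of all control clusters, and 42 at 0.001, against 64.5%. In replicate 1, 80 of 108 were enriched (11.7% of all clusters) and 36 passed 0.001 (4.22%). In replicate 2 the counts were 91 of 96 (40.7% of all clusters) and 81 (17.0%). Of the 80 in replicate 1, 49 lay on SPTBN1 and 29 on CEBPA. No such share is independent of the choice of genes, which used the control values and partly the peaks found in both Angel1 replicates.

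Enriched control clusters were usually met by an enriched Angel1 cluster on the same strand. In replicate 1 this held for 39 of 43 control clusters at the 3 genes (90.7%, Wilson 95% interval 78.4 to 96.3), against 15.0% of all 5247 enriched control clusters. In replicate 2 it held for 40 of 43 (93.0%, 81.4 to 97.6), against 26.7%. Abutting clusters of a block share reads, so these intervals cover counting error only and take the clusters as separate.

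The edges of control blocks were closely matched in the Angel1 lists. Of the 18 blocks, 17 had a cluster in replicate 1 and 11 of these had both edges of the run within 5 nt of the control, as did 13 of 17 in replicate 2. Elsewhere, 19.7% of the 1541 blocks met by a cluster of replicate 1 and 16.7% of the 1519 met in replicate 2 had such edges. The 3680 enriched control blocks elsewhere had a median of 4 IP reads in their best cluster and a median width of 45 nt. At the 3 genes these medians were 112 reads and 21.5 nt, so unlike blocks are compared here, and in the overlaps above. The part of depth and width in these shares was not tested. On SPTBN1, 0 of 3 blocks had both edges matching in either replicate, so that all the matches lay on MET and CEBPA. At the best SPTBN1 block only the start differed. The runs began 45 nt (replicate 1) and 90 nt (replicate 2) earlier than the control block and ended at most 1 nt from its end.

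Most of the blocks were narrow and split. Of the 18, 12 were at most 25 nt wide and held 2 or more clusters, against 11.9% of the 3700 enriched control blocks, and the median width was 21.5 nt against 44 nt. The best clusters had a median of 112 IP reads here and 4 over the 3700, so unlike blocks are compared. Strong control blocks elsewhere could also be narrow and split, such as chr21:47307671-47307691 (21 nt) and chrX:17727759-17727782 (24 nt), each with 4 clusters. Another, chr18:8034069-8034098, held 3 clusters over 30 nt. In 9 of the 14 blocks with 2 or more clusters, every cluster carried the same log2 fold and P, against 71.4% of 1486 such blocks in all. Identical values in abutting clusters were therefore no more frequent here than in the control list as a whole.

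**Figure D4:**
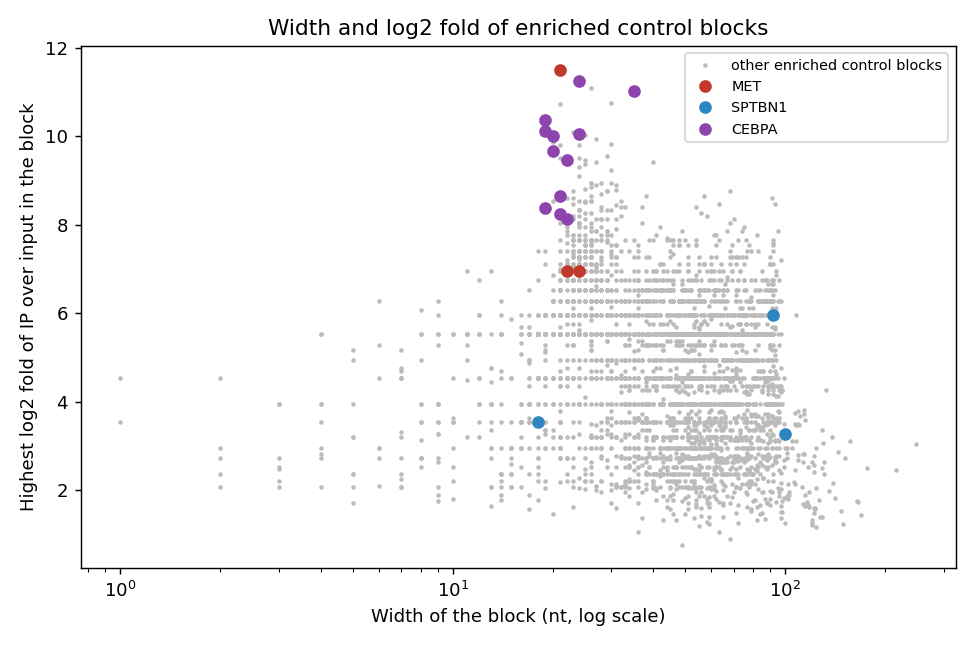
Width in nt (log scale, x axis) and highest log2 fold of IP over input (y axis) of enriched control blocks, with the blocks of the 3 genes in colour. The blocks of MET and CEBPA lie between 19 and 35 nt, with log2 folds of 6.95 to 11.51, whereas 2 of the 3 SPTBN1 blocks are 92 and 100 nt wide.

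Set against the libraries, the best clusters of the 18 blocks held at least 2670 IP reads in the control, 1.27% of that IP. They held 1477 in replicate 1 (0.0435%) and 847 in replicate 2 (0.0333%). A read that reached 2 blocks would count at both. The corresponding inputs were at least 0.00191% of the control library, and 0.00540% and 0.00245% of those of replicates 1 and 2. Since the control value is a lower bound, its place among the 3 inputs cannot be told. The IP share was higher in the control than in replicate 1 at 15 of 17 blocks, and higher than in replicate 2 at 15 of 17, the exceptions being 2 SPTBN1 blocks each time. The median ratio was at least 27.5 against replicate 1 and at least 44.4 against replicate 2, and at least 26.6 and 42.6 when each block was read from the cluster with the most IP reads. Across the 16 blocks with a cluster in both replicates, the RPM values of the replicates had a Spearman rho of 0.75. The control had a rho of 0.14 with replicate 1 and 0.50 with replicate 2, over 17 blocks each. On CEBPA alone the replicates had 0.65 (11 blocks), and the control had 0.48 with replicate 1 (12 blocks) and 0.84 with replicate 2 (11 blocks). These are descriptions over blocks that share libraries, some with control values that are lower bounds. The rhos with replicate 1 count 32 reads at chr19:33793288-33793322, where another cluster of nearly the same log2 fold had 127. No rho was computed by the cluster with the most reads. Whether 1 replicate was more like the control than the other therefore cannot be read from them.

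**Figure D5:**
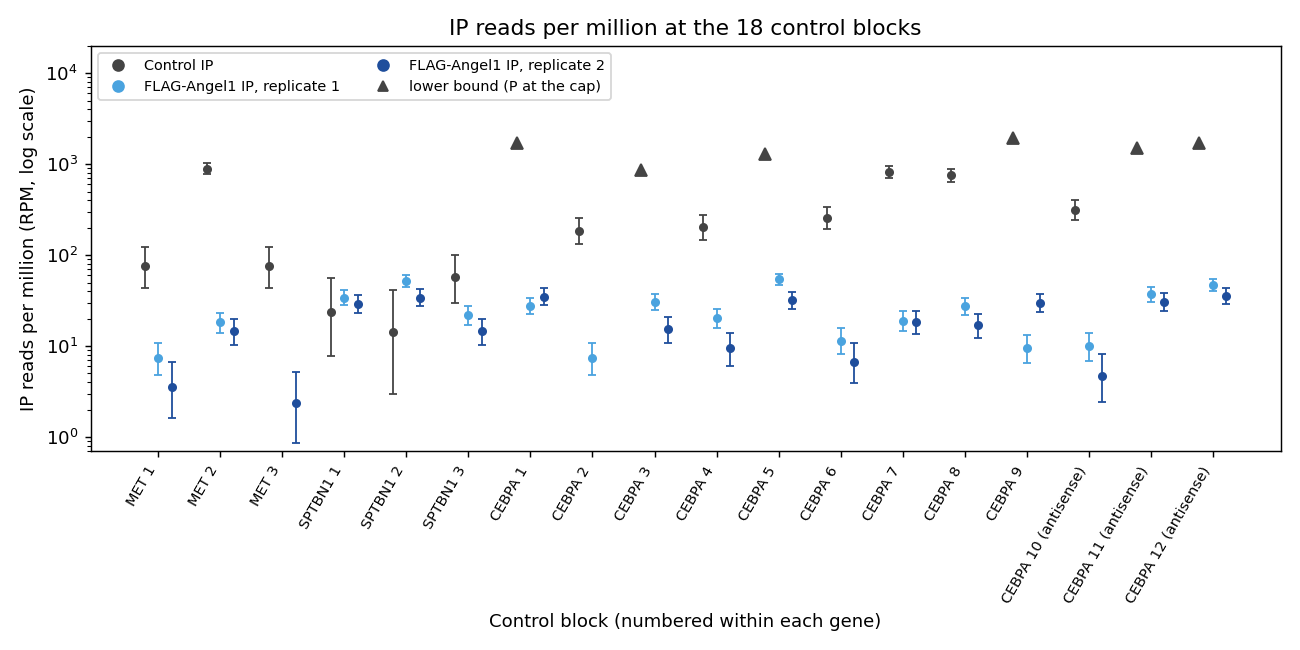
IP reads in RPM (log scale) of the best cluster at each of the 18 control blocks, numbered within a gene, in the 3 IP libraries. Bars are exact 95% Poisson intervals and triangles are lower bounds. The best cluster is the one with the highest log2 fold. The control lies above the replicates at every block of MET and CEBPA that has a cluster in them, whereas at the SPTBN1 blocks the libraries lie closer together.

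Reproducible peaks, merged from clusters that passed 0.001 in both Angel1 replicates and overlapped on the same strand, numbered 24 at the 3 genes. MET had 1, SPTBN1 had 12 and CEBPA had 11. Overlapping clusters were merged but abutting ones were kept apart, here and over the whole lists. Some peaks abutted, such as chr19:33792459-33792468 and chr19:33792469-33792484 on CEBPA, and also on SPTBN1. The counts are therefore not of separate sites, and the genes were chosen partly on such peaks. The MET peak and all 11 CEBPA peaks lay over a control cluster, as did 3 of the 12 SPTBN1 peaks. Of all 2243 reproducible peaks of the lists, 24.5% lay over a control cluster. The 9 SPTBN1 peaks without a control cluster included chr2:54886293-54886402, with log2 folds of 3.32 and 3.24, and chr2:54884986-54885168, with 2.96 and 4.28.

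Among regions outside these genes that held an enriched cluster of all 3 libraries, the 3 most like the MET block were found by Euclidean distance over the highest log2 fold in each of the 3 libraries. They were chr21:17150648-17150676 on the plus strand at a distance of 1.59, chr18:8034069-8034099 on the plus strand at 1.63 and chr6:99284145-99284165 on the plus strand at 1.86. Their control log2 folds were 11.08, 10.76 and 9.81 in that order. In replicate 1 they were 3.01, 3.23 and 3.35, and in replicate 2 4.39, 4.39 and 3.71. The regions were 29, 31 and 21 nt wide, close to the 22 nt of the MET region. Their genes were not named here.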

How the data were processed

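The labels describe 6 eCLIP libraries, and cluster lists of the 3 IPs were analysed. Before they deposited them, the authors mapped reads to GRCh37, called clusters in each library and normalized each to its input. The submitters' processing notes name cutadapt, STAR, SAMtools and UMI-tools, with no role. Each cluster was deposited with a log2 fold (IP against input) and the −log10 of a P, capped at 400. Depth is not in the lists. Library sizes were inferred as the pair at which the most frequent log2 fold is a ratio of whole reads and the deposited P values are returned by Fisher's exact test, or by the chi-square test with Yates' correction where no count or expected count was under 5. The reads behind each cluster followed from its log2 fold and −log10 P. The steps were tested on simulated data. Clusters were called enriched at a P of 0.05 with a log2 fold above 0, and overlaps required 1 nt on the same strand. The clusters with the highest fold per gene, and the regions most like MET, were named by rule. The members, the genes and these lists were chosen with earlier results of these data known. Alternatives covered thresholds, overlaps, strand, width, joining of clusters and library sizes. Another locus that was considered is not reported here. No test between libraries was made, since the control has 1 library. Cluster sequences were not used here, because no genome of this build was at hand. Python 3.11.15, numpy 2.4.6, pandas 2.3.3, scipy 1.17.1 and matplotlib 3.10.9 were used.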

Additional observations from a re-analysis of the deposited data

How the results depend on the processing

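No paired analysis was possible because no result comes from a test between libraries. Of the counts over the 3 genes, joining abutting clusters gave 18 enriched clusters in the control and 50 in replicate 1. The threshold of 0.001 gave 36 in replicate 1, and a log2 fold of at least 3 gave 23 in replicate 1 and 53 in replicate 2. Reproducible peaks numbered 49 at 0.05, and 36 to 81 with 1 replicate alone. With clusters of at least 20 nt only, the highest log2 fold was 6.95 (control), 1.41 and 2.73 (replicates 1 and 2) on MET, and 3.05 and 3.73 (replicates 1 and 2) on CEBPA, while the control clusters of CEBPA were all narrower and gave no value. The width-weighted mean was 2.97 on SPTBN1 in replicate 1. Control clusters met by replicate 1 were 71.4% at 0.001 and 97.7% with any cluster as the partner, and a reciprocal overlap of 50% gave 58.1% and 53.5% in replicates 1 and 2. Chosen after the data were seen, a limit of 20 nt left 5 narrow split blocks (12 at 30 nt), edges within 2 to 10 nt matched at 9 to 11 blocks in replicate 1 and 10 to 14 in replicate 2, joined control clusters were met in 83.3% and 88.9%, and the median ratios were 22.4 and 32.3 without lower bounds and 26.6 and 42.6 by the cluster with the most reads. In all, 40 values of this kind kept within 1.5 times the count or within their interval or replicate spread, including reads inferred with library sizes 5% larger or smaller. The IP and input sizes were changed together there, which keeps their ratio, so this does not test an error in the ratio. Of the counts per gene, 24 kept within 1.5 times and 12 did not. Depth limits the control most, since 3 IP reads are 14.3 RPM there.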

Other observations

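Among enriched control blocks, 11 at these 3 genes and 17 elsewhere had at least 50 IP reads in their best cluster. Of the latter, chr21:47307671-47307691 on the plus strand had the highest count, which is a lower bound. It was 21 nt wide and held 4 clusters, with at least 332 IP reads against 3 input reads and a log2 fold of 10.74. The block chrX:17727759-17727782 also stood at the cap of the P, with at least 236 IP reads. Which block elsewhere had the most reads therefore cannot be told. Others with high log2 folds were chr21:17150648-17150673 (140 reads against 1, log2 fold 11.08), chr18:8034069-8034098 (112 against 1, log2 fold 10.76) and chr21:44123708-44123730 (71 against 1, log2 fold 10.10), all on the plus strand.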
